A study of Canis lupus familiaris with 8 samples.

Results

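CCL1, CCL2, CCL13, CCL16 and CCL24 are CC chemokines that attract monocytes, eosinophils or T cells, and CD163, CD84 and ACOD1 are genes of macrophages and other leukocytes. These 8 genes were taken by probe name from the 156 target genes that remained when the 4 housekeeping genes of a 160-gene custom canine NanoString panel were set aside. NanoString counts barcoded probes bound to RNA, with no amplification, so each value is a count of molecules seen for that gene. The panel was run on RNA from archival fixed skin biopsies of 8 dogs. The cases included 2 male dogs with Vogt-Koyanagi-Harada syndrome (VKH), an autoimmune disease of pigment cells in skin and eye, which were a Bernese Mountain Dog aged 2.5 years and a Husky aged 2 years. The remaining case was a neutered male Labrador cross aged 1 year with vitiligo, in which pigment loss is limited to skin and mucosa. The 5 healthy samples were leg margins from amputations of older dogs, aged 6 to 12 years and of various breeds and crosses, 2 of them neutered males and 3 spayed females.

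The cases were spontaneous disease in client-owned dogs, 1 of the VKH dogs had been given steroids at a time relative to biopsy not given in the sources used here, and the study names the nose as the biopsy site of the cases. Disease can therefore not be told apart from body site, age or type of biopsy in any comparison of cases with healthy dogs. Sex differed in part, and a fit with only the 2 male healthy dogs has fewer dogs. In that fit CD84 was called in VKH and in the 3 cases but not in vitiligo (edgeR adjusted p = 0.0980), and CCL2 (0.0330) and CD163 (0.0292) were lower in the 3 cases. CCL1 and CCL13 in VKH had log2 changes of -1.88 and -1.48, close to those with all healthy dogs, with adjusted p of 0.0661 and 0.0794. The sample labels, used here, and the case descriptions differ on the ages of the second VKH dog and the vitiligo dog, and the descriptions give fuller breeds for both (a Siberian Husky and a Rottweiler-Labrador mix). Each sample was a different animal. Total panel counts were 742667 and 616576 for VKH, 421915 for vitiligo and between 209889 and 675018 for the healthy samples. Each count was divided by a size factor made from the housekeeping genes HPRT, CCZ1, RPL13A and B2M, and the result is called a scaled count. B2M, a component of MHC class I, did not itself stay level on that scale, with 113352 to 130591 scaled counts in the VKH dogs and 106779 in the vitiligo dog, against 25517 to 46475 in the healthy dogs.

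CC chemokines are small secreted proteins that bind receptors on leukocytes and draw them into tissue. In human, CCL2 and CCL13 act on CCR2 of monocytes, CCL13 and CCL24 act on CCR3 of eosinophils, and CCL1 acts on CCR8, which many skin T cells carry. Skin macrophages take up haemoglobin through CD163, and activated macrophages make the metabolite itaconate through ACOD1. CD84 is a self-binding receptor of the SLAM family that is found on macrophages but also on T cells, B cells, mast cells and platelets. No chemokine receptor and no eosinophil marker of the lists used here was on the panel. The receptors of these ligands and the eosinophils were therefore not measured.

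CD84 was the gene of the 8 that was higher in diseased skin, and the chemokine CCL13 was lower in VKH skin. CCL2 was lower in the 3 cases as 1 group. CCL1 passed the test as lower in VKH, but it was above background in neither VKH dog and in 1 healthy dog, so that its difference is not a measured level. CD163, CCL24, CCL16 and ACOD1 had lower fitted levels in VKH that did not pass the test. In edgeR's quasi-likelihood test with Benjamini-Hochberg adjustment over 156 genes, 1 of the 8 genes was higher in VKH than in healthy skin, where 31.4% of all genes were, and 2 were lower, where 12.2% of all genes were. In either direction 3 of 8 passed, against 43.6% of all genes, and 7 of 8 had an unadjusted p under 0.05, against 55.1%. The median log2 change of the 8 genes was -1.48, beside -0.01 over all genes tested, and 7 of the 8 estimates were negative. The 5 chemokines alone had a median of -1.67. CCL1, CCL16 and ACOD1, which passed background in 2, 1 and 6 of 8 dogs, are among these negative estimates. The mean of the negative controls, scaled alike, had a log2 difference of -0.95 between VKH and healthy dogs. The part of background in the medians was not tested. The summed scaled counts of 7 keratinocyte markers moved the other way. They were 283513 to 523016 in the VKH dogs and 242922 in the vitiligo dog, against 88566 to 188441 in the healthy dogs. Of 10 keratinocyte and melanocyte genes, 3 were higher in VKH, namely FLG, KRT10 and KRT1, products of the differentiating epidermis (log2 changes 2.63, 2.01 and 1.90), and none was lower. The keratinocyte markers KRT14, KRT5, IVL and LORICRIN had log2 changes of 0.57, 0.12, 0.53 and 0.88. None of them passed (edgeR adjusted p = 0.321, 0.847, 0.403 and 0.105). The melanocyte genes TYR, DCT and MC1R had -1.81, -0.26 and -0.17 and did not pass either. The part of the epidermal share of the biopsies in the lower values was not tested.

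**Figure D1:**
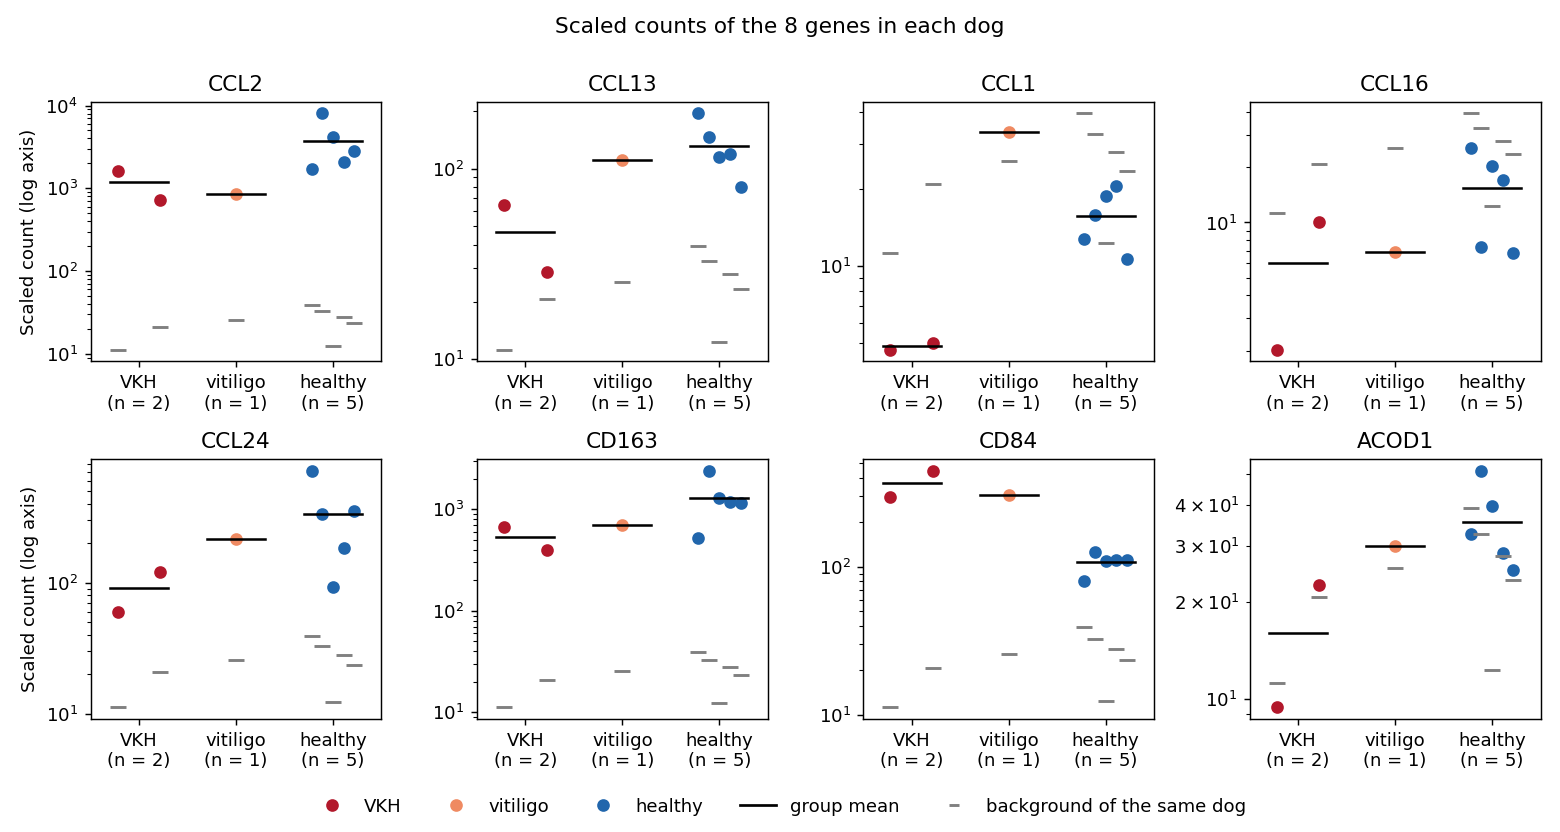
Scaled counts of the 8 genes in each dog on log axes, 1 panel per gene, with VKH (n = 2) left of vitiligo (n = 1) and healthy leg margins (n = 5), points for dogs, bars for group means and dashes for each dog's background. CD84 lies between 296 and 444 in the 3 cases and between 80.7 and 127 in the healthy dogs, whereas CCL2 lies between 731 and 1619.5 in the cases and between 1691 and 8032 in the healthy dogs.

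CCL2, the main attractant of blood monocytes, had 1619.5 and 731 scaled counts in the VKH dogs and 853 in the vitiligo dog, against 1691, 8032, 4180.1, 2061 and 2796 in the healthy dogs. All 3 cases lay below all 5 healthy dogs, although the first VKH dog was close to the lowest healthy dog and the healthy dogs spanned 4.75-fold. The log2 change was -1.81 ± 0.55 (SE) in the 3 cases against healthy, with an edgeR adjusted p of 0.0195, a 3.51-fold lower level. In VKH alone it was -1.67 ± 0.67 (adjusted p = 0.0662), and in the vitiligo dog -2.14 ± 0.95 (adjusted p = 0.133). In unscaled counts the groups overlapped, because the first VKH dog had 2399 counts and 2 healthy dogs had 1195 and 1811. For the 3 cases, the change without B2M in the scaling was -1.29 (adjusted p = 0.0860). It was -1.60 (0.0816) without the second VKH dog and -1.67 (0.0663) without the vitiligo dog.

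CCL13, which acts on monocytes and eosinophils, had 64.8 and 28.9 scaled counts in the VKH dogs and 112 in the vitiligo dog, against 195, 146, 116, 119 and 80.7 in the healthy dogs. Both VKH dogs lay below every healthy dog, and the vitiligo dog lay within the healthy range. The mean was 46.8 ± 25.4 in VKH (SD, n = 2) and 131 ± 42.6 in healthy skin (SD, n = 5). The log2 change in VKH was -1.47 ± 0.47 (SE), with an edgeR adjusted p of 0.0286. In vitiligo it was -0.23 ± 0.57 (adjusted p = 0.805). The VKH call rested on the second dog, since without it the change was -1.02 and the adjusted p 0.180. That dog's value was near the limit of the assay, with 23 counts against a background of 16.6 from its negative controls. With the negative-control mean subtracted the edgeR adjusted p was 0.0696, and without B2M in the scaling it was 0.145.

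CCL1, a ligand of T cells and monocytes, was near the limit of the assay. Background was set in each dog as the mean plus 2 SD of the 8 negative control probes, and lay between 16.6 and 27.8 counts. CCL1 passed it in 2 of 8 dogs, the vitiligo dog with 29 counts and 1 healthy dog with 35. Scaled counts were 4.73 and 5.02 in the VKH dogs and 33.3 in the vitiligo dog, against 12.7, 15.8, 18.8, 20.5 and 10.7 in the healthy dogs. Both VKH dogs were below all healthy dogs and the vitiligo dog was above all of them. The edgeR log2 change in VKH was -1.68 ± 0.49 (SE, adjusted p = 0.0190), and in vitiligo 1.07 ± 0.49 (adjusted p = 0.145).

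The negative controls moved the same way as CCL1 in VKH. Their mean, scaled alike, was 6.58 and 8.16 in the VKH dogs and 15.2 in the vitiligo dog, against 5.85 to 20.5 in the healthy dogs, a log2 difference of -0.95 between the VKH and healthy means. Divided by that mean, CCL1 was 0.718 and 0.615 in the VKH dogs and 2.19 in the vitiligo dog, against 0.621 to 3.22 in the healthy dogs, so VKH and healthy dogs overlapped. With counts under background set to it, the VKH adjusted p was 0.148, and without B2M in the scaling it was 0.114. Without the first or the second VKH dog the change was nearly the same, -1.63 or -1.72, with adjusted p of 0.0976 or 0.0709.

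CCL16, known in human mainly as a chemokine of liver, passed background in 1 of 8 dogs, a healthy one with 38 counts. Its scaled counts were 2.03 and 10.04 in the VKH dogs and 6.90 in the vitiligo dog, against 6.81 to 25.5 in the healthy dogs. The groups overlapped, and the log2 change in VKH was -1.50 ± 0.77 (SE, edgeR adjusted p = 0.130). It passed the test in VKH with panel-total scaling (adjusted p = 0.0290), and in the 3 cases with panel-total, TMM and median-of-ratios scaling (0.0188, 0.0342 and 0.0290). A level of this gene in skin was not detectable at this depth in 7 of the 8 dogs.

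CCL24, also named eotaxin-2 for its action on eosinophils, passed background in all 8 dogs. It had 60.1 and 122 scaled counts in the VKH dogs and 215 in the vitiligo dog, against 712, 337, 93.6, 186 and 351 in the healthy dogs. The healthy dogs spanned 7.60-fold, the widest spread of the 8 genes, and their lowest value lay between the 2 VKH dogs. The log2 change in VKH was -1.89 ± 0.73 (SE, edgeR adjusted p = 0.0611), the most negative estimate of the 8 genes in VKH. Without the third healthy dog, the one inside the VKH range, the adjusted p was 0.0184, and without the fourth it was 0.0456. Without the first VKH dog the change was -1.46 (adjusted p = 0.285), and without the second -2.48 (0.116).

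CD163, the haemoglobin scavenger receptor that marks tissue macrophages, had 663 and 397 scaled counts in the VKH dogs and 698 in the vitiligo dog, against 521, 2388, 1296, 1179 and 1151 in the healthy dogs. Of the healthy dogs, 4 lay above every case and 1 lay among the cases. The mean was 529.8 ± 188 in VKH (SD, n = 2) and 1307 ± 676 in healthy skin (SD, n = 5). The edgeR adjusted p was 0.0770 in VKH, for a log2 change of -1.30 ± 0.55 (SE), and 0.0520 in the 3 cases, for -1.16 ± 0.45. Without the first healthy dog, the low one, the change in the 3 cases was -1.36 (adjusted p = 0.0141). It was -0.82 (0.0949) without the second healthy dog, the highest, and -0.94 (0.168) without the second VKH dog. In a bulk biopsy, fewer cells of a type and less RNA per cell cannot be told apart.

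ACOD1, the itaconate-forming enzyme of activated macrophages, had 9.45 and 22.6 scaled counts in the VKH dogs and 29.9 in the vitiligo dog, against 25.3 to 51.2 in the healthy dogs. It passed background in 1 VKH dog, in the vitiligo dog and in 4 of 5 healthy dogs, with at most 74 counts. Both VKH dogs lay below all healthy dogs in scaled counts. Divided by the mean of the negative controls, ACOD1 was 1.44 and 2.77 in the VKH dogs and 1.96 in the vitiligo dog, against 1.59 to 6.80 in the healthy dogs, and the groups overlapped. The log2 change in VKH was -1.19 ± 0.49 (SE) and did not pass edgeR's test (adjusted p = 0.0686). It was -0.65 (0.377) without the first VKH dog and -1.90 (0.0468) without the second.

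CD84 had 296 and 444 scaled counts in the VKH dogs and 307 in the vitiligo dog, against 80.7, 127, 109, 112 and 112 in the healthy dogs. All 3 cases lay above all healthy dogs, and the healthy dogs spanned only 1.57-fold. The level was 3.43-fold higher in VKH, a log2 change of 1.78 ± 0.30 (SE, edgeR adjusted p = 0.00124), and 2.84-fold higher in vitiligo, 1.51 ± 0.38 (adjusted p = 0.0180). In the 3 cases together it was 3.23-fold higher (adjusted p = 0.000603). The rise in VKH and in the 3 cases passed the test in every fit run, and that in the vitiligo dog in 15 of 22. In unscaled counts the cases had 439, 354 and 267, against 57 to 202 in the healthy dogs.

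CD84 did not follow CD163. Among ratios chosen after their values were seen, the count of CD84 over that of CD163 in the same dog was 0.447 and 1.12 in the VKH dogs and 0.440 in the vitiligo dog, against 0.0531 to 0.155 in the healthy dogs. Scaling cancels in such a ratio, and the cases and healthy dogs did not overlap. The genes whose profiles over the 8 dogs were nearest to CD84 were CXCL16, a chemokine, and PTPRC, the common leukocyte antigen CD45, with root-mean-square differences of 0.13 and 0.22 in centred log2 scaled counts. The nearest of the other 7 genes was ACOD1, at 1.31.

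T cell markers were far higher in the same dogs. All 4 measured of the list (such as CD3E, part of the T cell receptor complex) were higher in VKH, with summed scaled counts of 1516 to 1938 in the VKH dogs and 1434 in the vitiligo dog, against 155 to 251 in the healthy dogs. Of 8 cytotoxic and NK cell genes, 7 were higher in VKH, with sums of 882 to 1033 in the VKH dogs and 771 in the vitiligo dog, against 123 to 222 in the healthy dogs. Of 6 B and plasma cell genes, 4 were higher and 1 lower, with sums of 269 to 474 in the VKH dogs and 570 in the vitiligo dog, against 118 to 184 in the healthy dogs. Per CD3E count, CD84 was lower in the cases, at 0.394 and 0.488 in the VKH dogs and 0.467 in the vitiligo dog, against 0.904 to 1.58 in the healthy dogs. No marker of these lists was at 0 in any dog, and the part of lymphocytes in the CD84 level was not tested.

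**Figure D2:**
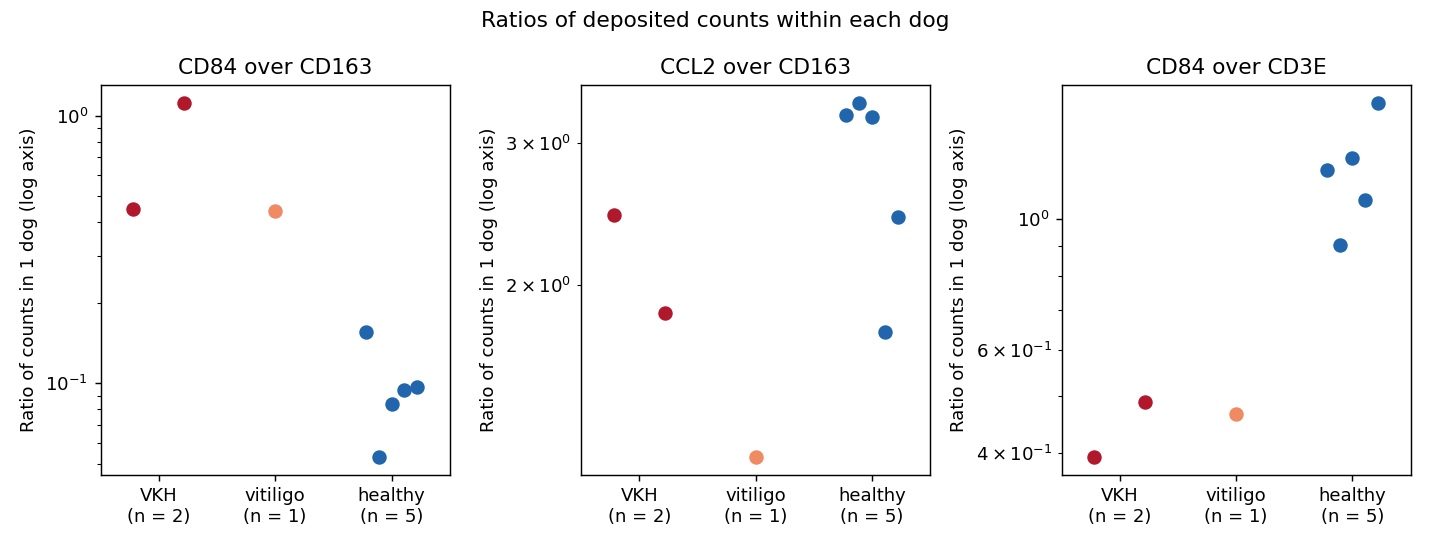
Ratios of deposited counts within each dog on log axes, for VKH (n = 2), vitiligo (n = 1) and healthy leg margins (n = 5), 1 point per dog. CD84 over CD163 is at least 0.440 in the cases and at most 0.155 in the healthy dogs, CCL2 over CD163 overlaps between them, and CD84 over CD3E is at most 0.488 in the cases and at least 0.904 in the healthy dogs.

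CCL2 and CD163 ran closer together. CCL2 over CD163 was 2.44 and 1.84 in the VKH dogs and 1.22 in the vitiligo dog, against 1.75 to 3.36 in the healthy dogs, and the groups overlapped. CD163 was the nearest of the 8 genes to CCL2 (0.49), and both had PECAM1, an adhesion molecule of endothelium, and CCL8, another monocyte attractant, as their nearest other genes. Those differences were 0.54 and 0.60 for CCL2 and 0.30 and 0.45 for CD163. PECAM1 had 1628 and 1457 scaled counts in the VKH dogs and 2339 in the vitiligo dog, against 2770.0 to 7084 in the healthy dogs, and was lower in VKH (log2 change -1.54, edgeR adjusted p = 0.0178). The endothelial, fibroblast and adipocyte list held 3 measured genes, of which 1 was lower in VKH, and the mast cell list 4, of which 1 was lower. Whether vessel content had a part in the CCL2 and CD163 levels was not tested.

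Of the other profiles, CCL13 lay nearest to CXCL12, a stromal chemokine, and IGFBP5 (0.49 and 0.50), and CCL24 to TACR1, the substance P receptor, and IGFBP5 (0.69 and 0.70). ACOD1 lay nearest to the melatonin receptor 1 probe and IL-16 (0.28 and 0.32). CCL1 lay nearest to the melatonin receptor 1 probe and CCL23 (0.53 and 0.56), and CCL16 to SERPINB2 and IFNA7 (0.37 and 0.44). The melatonin receptor 1 probe and CCL16 each passed background in 1 of 8 dogs, and CCL1 in 2. The part of background in these likenesses was not tested. These values describe 8 dogs that share a panel and a scaling.

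In the single vitiligo dog, assumed to vary like the other groups, CD84 was the 1 gene of 8 that was higher, where 21.8% of all genes were, and none was lower, where 2.56% were. In either direction 24.4% of all genes passed, and at an unadjusted p under 0.05 there were 2 of the 8 (CCL2 and CD84) and 35.9% of all genes. The median log2 change of the 8 genes was -0.44, beside 0.29 over all genes. By plain position, the vitiligo dog was above all healthy dogs for 2 of the 8 (CCL1 and CD84), where 43.6% of all genes were, and below them for 1 (CCL2), where 17.3% were. This comparison and that of VKH share the same 5 healthy dogs.

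In the 3 cases together, 1 of the 8 genes was higher, where 36.5% of all genes were, and 1 was lower, where 14.1% were. In either direction that was 2 of 8, against 50.6% of all genes, and 3 of 8 had an unadjusted p under 0.05, against 54.5%. All 3 cases lay above all healthy dogs for 1 of the 8 (34.6% of all genes) and below them for 1 (10.9%). For both VKH dogs alone these counts were 1 above (36.5%) and 4 below, namely CCL1, CCL2, CCL13 and ACOD1 (18.6%). Exact two-sided permutation tests over dogs gave 0.0357 for CCL2 and for CD84 in the 3 cases, the smallest p this design allows, and 0.0714 for CCL13. With 2 VKH dogs against 5 the smallest possible exact p is 0.0952, so that design cannot reach 0.05. There were 16 such tests, given unadjusted.

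VKH and vitiligo differed in none of the 8 genes in the test of the difference itself, where no gene was higher (0%) and 0.641% of all genes were lower in VKH, which is also the share in either direction. CCL1 was the 1 gene of 8 with an unadjusted p under 0.05, against 3.85% of all genes. Its log2 difference, VKH minus vitiligo, was -2.75 ± 0.61 (SE, edgeR adjusted p = 0.0862). For CD84 the difference was 0.27 and for CCL13 -1.23, and with 1 vitiligo dog these do not show that the diseases are alike.

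**Figure D3:**
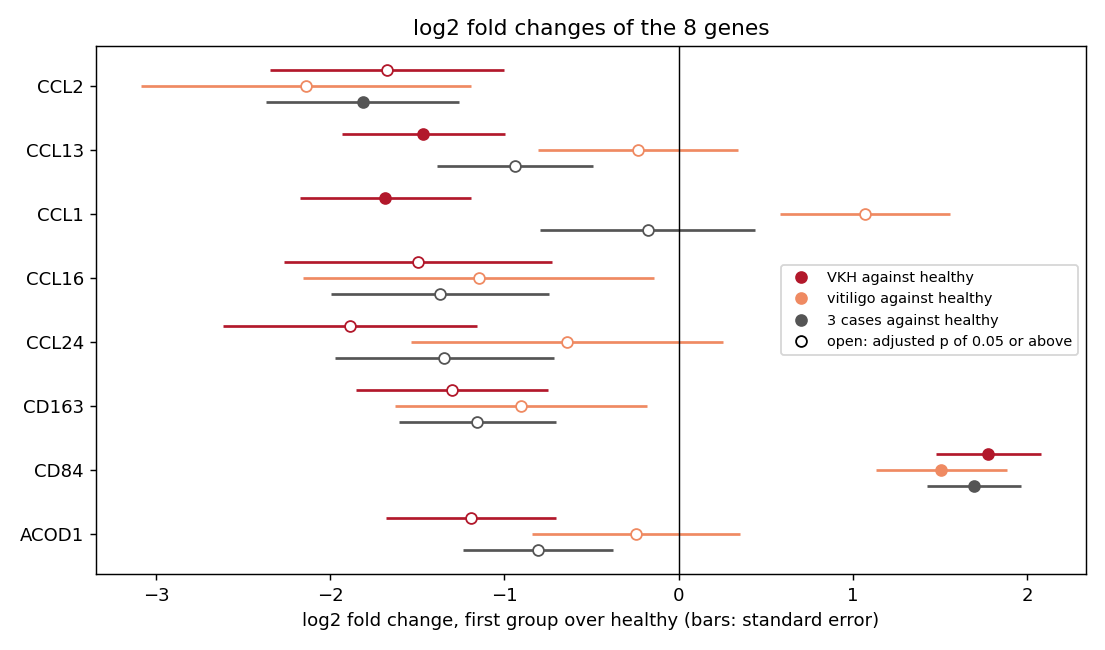
Log2 changes of the 8 genes against healthy leg margins, for VKH (n = 2), the vitiligo dog (n = 1) and the 3 cases together. Bars are 1 SE derived from edgeR's F statistic, and filled points have an adjusted p under 0.05. CD84 is positive and filled in all 3 comparisons, and the filled negative points are CCL1 and CCL13 in VKH and CCL2 in the 3 cases.

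The size of the lower values depended on the scaling. On the housekeeping scale B2M itself was higher in the cases, and CCZ1, HPRT and RPL13A were lower. The median log2 change of all genes in VKH was -0.01 with the 4 housekeeping genes, 0.57 without B2M, 0.04 without scaling and -0.87 with the panel total. Of all genes, 49 were higher and 19 lower in VKH with the 4 genes, against 63 and 6 without B2M and 23 and 59 with the panel total. Both VKH dogs stayed above all healthy dogs for CD84 under each of 7 scalings, and the 3 cases under 6, the exception being scaling to the positive controls. For CCL2 the 3 cases lay below all healthy dogs under 3 of 7 scalings, and the vitiligo dog under all 7. Both VKH dogs lay below all healthy dogs under 6 of 7 for CCL1, 5 for ACOD1 and 4 for CCL13.

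**Figure D4:**
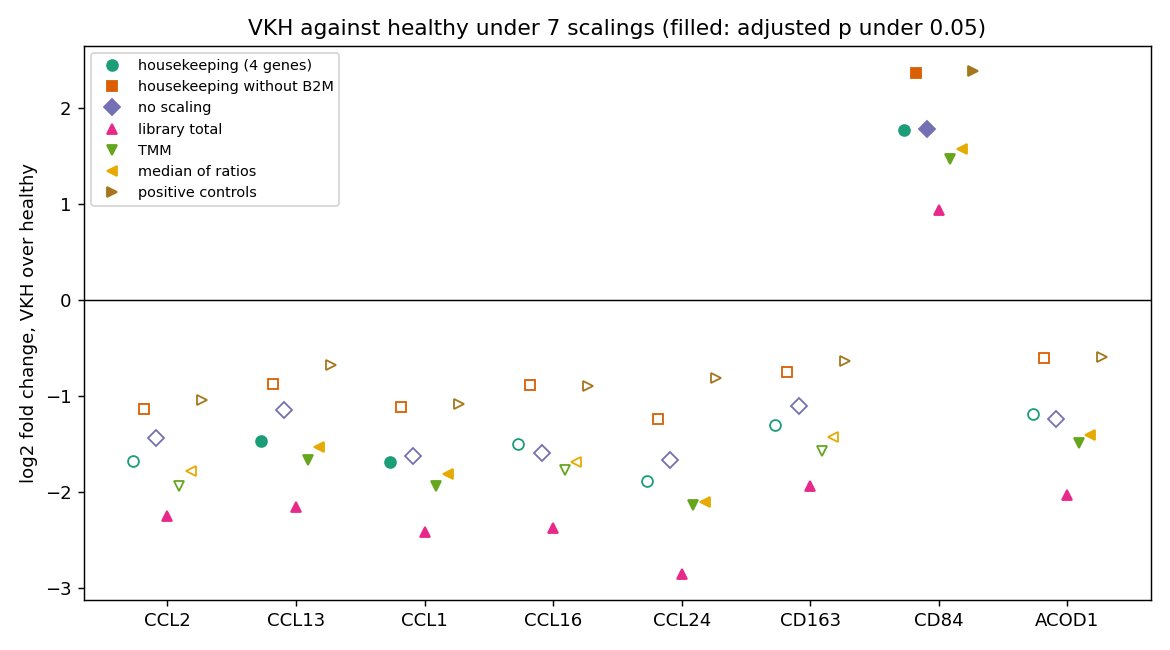
Log2 change of the 8 genes in VKH against healthy leg margins under 7 scalings, 1 point per gene and scaling, filled for an edgeR adjusted p under 0.05, with library total for the panel total. CD84 stays above 0 and filled, while the other 7 genes stay below 0 and shift with the scaling, by which the median of all genes moves between -0.87 and 0.65.

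Among the other CC chemokines the changes went both ways. Of 15 measured, 3 were higher and 1 lower in VKH, with a median log2 change of -0.28. CCL5, an attractant of T cells and monocytes, had 1911 and 3118 scaled counts in the VKH dogs and 2228 in the vitiligo dog, against 30.1 to 122 in the healthy dogs (log2 change in VKH 5.44, edgeR adjusted p = 5.02e-05). CCL22, a ligand of CCR4 on T cells, was also higher in VKH (2.25, adjusted p = 0.00538). In the RefSeq annotation of the dog assembly UU_Cfam_GSD_1.0, CCL1, CCL13, CCL8, CCL7 and CCL2 lie side by side in this order, CCL16 lies next to CCL14 and CCL5, and CCL24 next to CCL26. Of that neighbourhood CCL7, named after its values were seen, was lower in the 3 cases (log2 change -1.71, adjusted p = 0.0401), and CCL8 had -0.87 (adjusted p = 0.165). CCL5, beside CCL16, was higher, as given above. CCL26, the neighbour of CCL24 and also a CCR3 ligand, was likewise chosen after its values were seen and had a log2 change of 0.85 in VKH (adjusted p = 0.173). Cross-binding of probes among these related genes was not tested.

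Other genes of macrophage biology were few on the panel. CD86, a costimulatory receptor of macrophages, dendritic cells and B cells, was the 1 measured of the list of other macrophage and monocyte markers. It had 677 and 811 scaled counts in the VKH dogs and 782 in the vitiligo dog, against 176 to 413 in the healthy dogs, and was higher in VKH (log2 change 1.31, edgeR adjusted p = 0.0175). Cases and healthy dogs did not overlap, as for CD84. Of 6 measured type 1 and macrophage-activating cytokines, 3 were higher and 1 lower in VKH. TNF and IFNG were higher (1.71 and 1.47, adjusted p = 0.00229 and 0.0167). IL6 was lower, with 27.7 and 22.6 scaled counts in the VKH dogs and 17.2 in the vitiligo dog, against 190 to 1456 in the healthy dogs (-4.53, adjusted p = 0.00362). None of 4 type 2 cytokines passed in VKH. Of these, IL9 was above background in no dog, IL13 in 6 and TSLP in all 8, so the list was measured only in part. Of 9 measured CXC and other chemokines, 5 were higher and 2 lower.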

How the data were processed

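The authors extracted RNA from archival biopsies and ran a custom NanoString panel, and the deposited values are raw barcode counts per probe with no normalization, for 160 genes, 6 positive and 8 negative controls. Total panel counts per dog limit the precision of low genes, and counting error is only part of their error. Scaled counts were the counts divided by the geometric mean of the 4 housekeeping genes, set to a geometric mean of 1 over dogs. The deposited counts of 156 genes were tested with edgeR 4.0.16 (R 4.3.3) quasi-likelihood fits over all 8 dogs. In these fits the geometric mean of the housekeeping genes was the library size, with no count filter and Benjamini-Hochberg adjustment at 0.05. Each SE of an edgeR log2 change was derived as its absolute value over the square root of the F statistic. The methods' t-test on unscaled counts, DESeq2 1.42.0, other scalings, a count filter and leaving out each dog were alternatives. The authors' methods also name a two-way ANOVA with Bonferroni posttests, not run here. By it the study reports differences in CCL2, which it calls lower, and in CD84. Single genes were also tested by exact permutation of log2 (scaled count + 1). Likeness of 2 genes was the root-mean-square difference of those log2 values after centring. The genes named beside the 8 were the housekeeping genes, up to 3 of each list with the largest VKH change, and the 2 nearest profiles of each of the 8; only some are described. The 8 genes and the lists were chosen with earlier results of these data known. Probes were matched to RefSeq, 5 by accession and 3 by symbol. The statistical steps were tested on simulated data.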

Additional observations from a re-analysis of the deposited data

How the results depend on the processing

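CD84 kept its direction and passed the test in VKH in 25 of 25 settings and in the 3 cases in 23 of 23; the lower calls did not have that stability. The 2 genes lower in VKH became 0 without scaling, without B2M, with positive-control scaling, with the negative-control mean subtracted, with the 2 male healthy dogs only, and by the methods' t-test on unscaled counts before and after Benjamini-Hochberg adjustment. They became 1 (CCL13) with counts under background set to it, 4 with TMM and median-of-ratios scaling, 5 with DESeq2 and 7 with the panel total. With the vitiligo dog or 1 healthy dog left out they were 2 to 4, always with CCL1 and CCL13. Without the first or the second VKH dog, which leaves 1 dog in the group, the log2 change of CCL13 was -2.18 or -1.02. The 1 gene lower in the 3 cases became 0 without scaling, without B2M and with positive-control scaling. It became 6 with panel total, TMM and median-of-ratios scaling, and 2 with a count filter, DESeq2, edgeR's newer default or male healthy dogs only. With 1 dog left out the number was 0 to 2, and without the vitiligo dog the genes were CCL1 and CCL13, not CCL2. The 1 gene higher in vitiligo became 2 without B2M and 0 without scaling, with panel total, TMM, median-of-ratios and positive-control scaling and with male healthy dogs only. DESeq2 called 1 gene lower in vitiligo. VKH and vitiligo differed in 1 gene with the panel total and with the count filter. Of all 156 genes, 22 were lower in the 3 cases with the 4-gene scaling. That number was 50 for the panel total, 38 under TMM, 38 under median-of-ratios, 11 unscaled, 9 without B2M and 4 for positive controls. The lower calls in the 3 cases therefore moved with the scaling over the whole panel, not only among the 8 genes.

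Signs turned only in estimates not called with the 4-gene scaling and all dogs; 1 of them, CCL1 in the 3 cases, was called as lower without the vitiligo dog (adjusted p = 0.0177). Without B2M, the log2 changes were 0.31 for CCL13 and 0.27 for ACOD1 in vitiligo and 0.37 for CCL1 in the 3 cases, and the last was 0.58 with the negative-control mean subtracted and -1.68 to 0.29 with 1 dog left out (0.29 without the first VKH dog, 0.19 without the second). Between VKH and vitiligo they were 0.75, 0.73 and 0.13 for CCL16, CD163 and ACOD1 with positive-control scaling, 3.35 for CCL16 with the negative-control mean subtracted, 0.10 for CD163 without scaling and -0.12 for CD84 with the panel total. With 1 VKH dog left out they ranged over -0.22 to 0.92 for CCL2, -1.71 to 0.53 for CCL16 and -0.0506 to 0.53 for CD84. The causes were not tested. The labels number dogs that are separate animals, and same-numbered VKH and healthy dogs did not deviate together (correlations of -0.08 and -0.13 over 156 genes). A fit with the replicate block called 3 genes lower in VKH (CCL2, CCL13 and CCL24), 0 higher in vitiligo and 0 lower in the 3 cases, and gave 0.0186 for ACOD1 in vitiligo and -0.0664 for CD84 between VKH and vitiligo. Over all genes, 28 were higher and 14 lower in VKH with the block, against 49 and 19 without it, 35 and 4 without scaling, 39 and 2 with positive-control scaling, 48 and 28 by DESeq2, 47 and 29 with median-of-ratios scaling, 44 and 29 with TMM, 41 and 12 with the negative-control mean subtracted and 34 and 12 with male healthy dogs only. They were 39 and 5 without the first VKH dog and 32 and 7 without the second, and by the methods' t-test 47 and 7 unadjusted and 24 and 0 after Benjamini-Hochberg adjustment. CCL1, CCL16 and ACOD1 passed background in 2, 1 and 6 of 8 dogs, and the part of depth in this was not tested.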
